A study of Homo sapiens with 4 samples.

Results

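The keratin and vimentin genes followed here are the 9 genes KRT7, KRT8, KRT10, KRT18, KRT19, KRT20, KRT23, KRT80 and VIM, of 19775 genes named by the array. A probe set, the group of short probes that reports a transcript, counted as a member when the platform annotation gave it exactly 1 of these symbols, which held for 16 probe sets. RNA came from HCT116 cells, a human colon carcinoma line. The cells were grown as multicellular spheroids (MCS), compact aggregates whose core is poorly supplied with oxygen and glucose, or as flat monolayers on plastic. There were 2 untreated spheroid cultures and 2 untreated monolayer cultures of the same parental line, described as independent, each on 1 array of 54675 probe sets. Spheroids were lysed whole, so core and rim were not separated. In the study, the comparison served to describe how gene expression of spheroids, meant to resemble poorly perfused tumour tissue, departs from that of standard cultures.

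Keratins are the intermediate filament proteins of epithelial cells. A filament always pairs a type I with a type II keratin, and the pair of KRT18 (type I) and KRT8 (type II) is the founding pair of simple epithelia such as the gut lining. KRT19 and KRT20 are further type I keratins of intestinal epithelium, KRT20 mostly of its differentiated cells, whereas VIM encodes vimentin, the type III filament protein of mesenchymal cells, which carcinoma cells can also make. Keratin 18 had a separate use in the study: its caspase-cleaved form was measured as a readout of apoptosis, which transcript levels do not show.

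KRT19 was higher in spheroids, 1.73-fold on the deposited scale, but not when arrays were scaled to spike-in controls (-0.069 on the log2 scale). VIM was also called higher, from a dim signal that passed the filter only through the spheroid arrays, and lost the call when either of 2 arrays was left out. KRT18 and KRT10 were not called, and KRT8 was lower on both spheroid arrays without passing the test. Scaling to the spike-in controls called KRT8 and KRT18 lower, as it did 3996 of all 8721 tested genes, with the median gene at -0.87. KRT7, KRT20, KRT23 and KRT80 were too dim to be tested. Of the 5 genes tested, 2 were called higher and 0 lower (limma, adjusted p under 0.05 over all 8721 genes tested; 1 further gene, KRT8, had an unadjusted p under 0.05, and the methods' t-test called 0 lower without adjustment). Over all tested genes 39.6% were called, 19.0% higher and 20.6% lower, so 2 of 5 is close to that share, and 1 of the 2, VIM, was admitted by its spheroid level. The median log2 difference of the 5 genes was 0.17, and that of all tested genes was -0.030.

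Signals are linear MAS5 units. A probe set was tested when its mean over the 4 arrays was above 300 units, differences are log2(signal + 32), spheroid minus monolayer, with their standard errors (SE), and intervals are 95% intervals of the fit. Each gene is represented by its brightest probe set. Arrays had a trimmed mean of 499.9 units each, and 27.5% to 30.0% of their probe sets were above 300 units. The ratio of 3' to 5' signal for ACTB was 2.82 and 3.003 in spheroids and 2.64 and 2.34 in monolayers, and the part of this in any result was not tested. Bacillus spike-in controls, bacterial transcripts added to the RNA, had geometric means of 1640 and 1113 units in spheroids against 700.4 and 787.1 in monolayers. When arrays were scaled to these controls, the median gene moved to -0.87, with 183 genes higher and 3996 lower, against 1656 and 1799 as deposited. Every difference below is thus relative to an array's total signal. Unspiked bacterial controls, which mark the empty background, read 4.47 to 35.0 units. With 2 arrays against 2, an exact two-sided permutation test of a single value cannot go below p = 0.333.

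Epithelial markers were present in part. EPCAM, an epithelial adhesion protein, had 25873 and 29021 units in spheroids against 27044 and 27171 in monolayers. CDH1, which encodes E-cadherin, had 4643 and 5419 units in spheroids against 1213 and 1835 in monolayers, a log2 difference of 1.73 ± 0.19. The intestinal markers CDX2, VIL1, CDH17 and LGALS4 stayed at or below 147.0 units on every array. Of 6 fibroblast markers 1 was tested, the collagen gene COL1A1, which was higher (1.64 ± 0.20), and the other 5 (COL1A2, COL3A1, DCN, LUM and PDGFRB) were at or below 78.2 units. Summed signals of the 6 were 2413 and 2776 units in spheroids against 1098 and 802.7 in monolayers. Summed endothelial and leukocyte markers did not exceed 259.8 units on any array, but CD68 of the leukocyte list had no probe set with 1 symbol. The part of any other cell type in the results was not tested. In a lysate, more cells that make a transcript and more transcript per cell cannot be told apart.

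Among the type II keratins, KRT8 was the only member above the filter. Its probe set (209008_x_at) had 5962 and 4003 units in spheroids against 7851 and 6056 units in monolayers. Both spheroid arrays lay below both monolayer arrays, but spheroid replicate 1 and monolayer replicate 2 were only just apart. The log2 difference was -0.49 ± 0.19 (limma, adjusted p = 0.0534), with an interval of -0.90 to -0.086, or 0.535-fold to 0.942-fold. Without spheroid replicate 1 it was called lower (-0.78, adjusted p = 0.0106), and likewise without monolayer replicate 2 (-0.68, adjusted p = 0.00207). Without spheroid replicate 2 or monolayer replicate 1 it was not called, with adjusted p up to 0.434. With spike-in scaling it was called lower (-1.35, adjusted p = 0.00404), where the median gene was at -0.87.

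KRT7, a type II keratin of ductal epithelia, had 4 probe sets, all below the filter. The brightest (1558393_at) had 215.5 and 154.8 units in spheroids against 262.2 and 140.6 units in monolayers, and the groups overlapped. The groups also overlapped for 2 of the others. The dimmest (214031_s_at) had 6.88 and 4.93 units in spheroids against 41.4 and 16.1 units in monolayers, lower in spheroids but within the range of the unspiked controls on 3 of 4 arrays. KRT80, a type II keratin, had 35.1 and 35.8 units in spheroids against 67.8 and 47.8 units in monolayers, hardly above that range. Spheroids were below monolayers for KRT80 without overlap. In a fit with no filter the difference was -0.40 ± 0.37 (limma, adjusted p = 0.582).

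**Figure D1:**
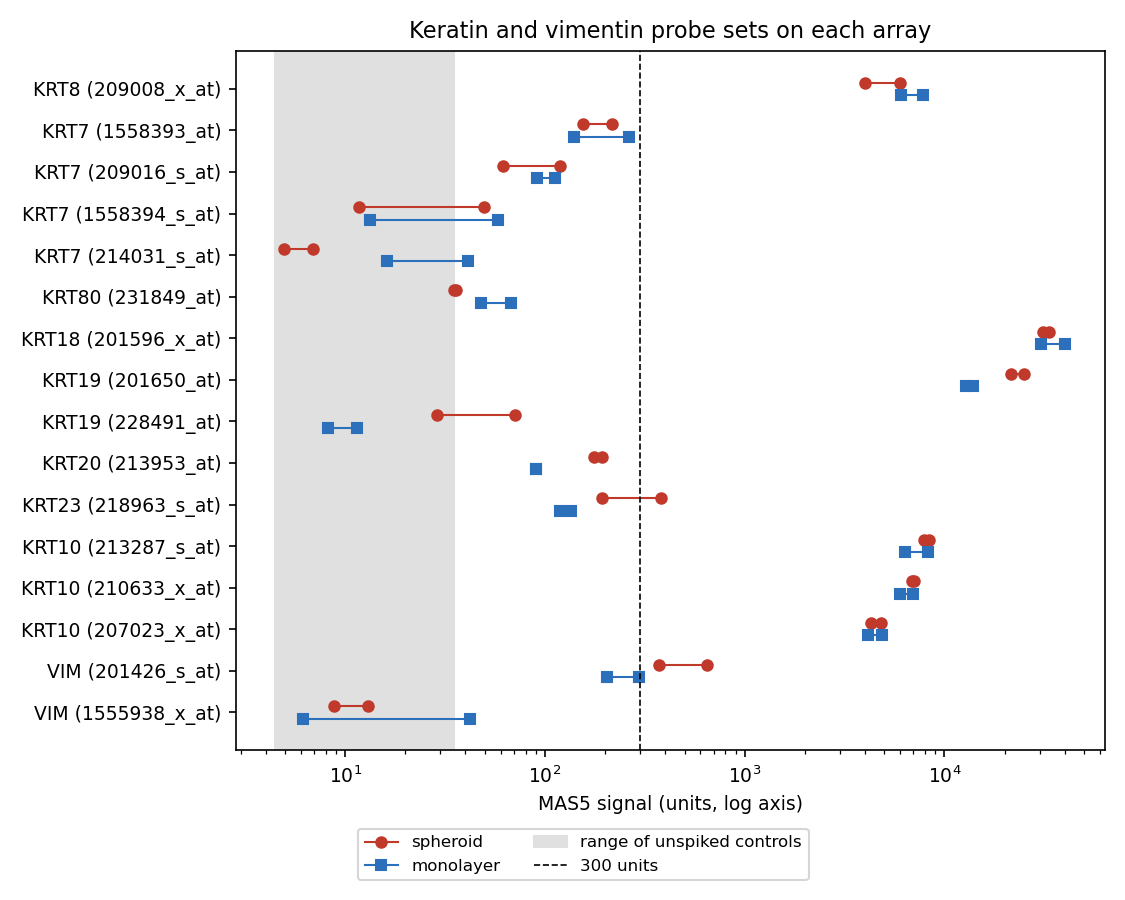
MAS5 signal (x, log axis) of all 16 keratin and vimentin probe sets (y) on each array, with red circles for the 2 spheroid arrays and blue squares for the 2 monolayer arrays, a line joining arrays of one group, the range of the unspiked controls in grey and the filter of 300 units dashed. KRT19 (201650_at) shows 24984 and 21669 units in spheroids well apart from 13978 and 12872 in monolayers, while KRT18 and KRT10 overlap and KRT7, KRT20, KRT23 and KRT80 have means left of the dashed line.

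Among the type I keratins, KRT18, the partner of KRT8, had 33474 and 31205 units in spheroids against 30310 and 40270 units in monolayers. The spheroid arrays lay between the monolayer arrays, which were themselves far apart. The log2 difference was -0.11 ± 0.13 (limma, adjusted p = 0.518), and its interval, -0.39 to 0.17, leaves room for changes of 0.762-fold to 1.12-fold. Without monolayer replicate 1 KRT18 was called lower (-0.32, adjusted p = 0.0188), and without monolayer replicate 2 the difference was 0.093. With spike-in scaling it was called lower (-0.97, adjusted p = 0.0239), close to the median gene at -0.87.

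KRT19, which has almost no tail domain and pairs with KRT8 in the gut, had 24984 and 21669 units in spheroids against 13978 and 12872 units in monolayers. The gap between the groups was wider than that between replicates of either group. Group means were 23327 ± 2344 units in spheroids and 13425 ± 782.1 in monolayers (SD, n = 2 each). The log2 difference was 0.79 ± 0.12 (limma, adjusted p = 2.65e-04), with an interval of 0.54 to 1.05, or 1.45-fold to 2.07-fold. It stayed between 0.69 and 0.90 and was called with each array left out in turn. Of the 8721 tested genes, 978 (11.2%) had a higher log2 difference than KRT19. A test against a log2 difference of 0.5 did not call it (adjusted p = 0.113). With spike-in scaling its difference was -0.069 (adjusted p = 0.887), while the median gene was at -0.87. The second KRT19 probe set (228491_at) was dim, with 70.6 and 28.9 units in spheroids against 11.4 and 8.19 units in monolayers. It too was higher in spheroids without overlap, but 3 of its 4 values lay within the range of the unspiked controls.

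KRT20 had 176.2 and 193.4 units in spheroids against 89.8 and 90.3 units in monolayers. The groups were apart and replicates close, at a level below the filter. Without a filter the difference was 0.83 ± 0.37 (limma, adjusted p = 0.216), and at a filter of 100 units its adjusted p was 0.0923. KRT23, a type I keratin, had 192.7 and 380.5 units in spheroids against 118.6 and 135.7 units in monolayers. Both spheroid arrays were above the monolayer arrays, but they were far apart and only 1 passed 300 units. Without a filter the difference was 0.94 ± 0.41 (limma, adjusted p = 0.195), and at a filter of 100 units its adjusted p was 0.0603. Neither gene was called in any setting that tested it.

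KRT10, the type I keratin of differentiated epidermis, had 3 probe sets, all tested. The brightest (213287_s_at) had 8416 and 7918 units in spheroids against 8253 and 6345 units in monolayers, with overlap. Its log2 difference was 0.17 ± 0.15 (limma, adjusted p = 0.373), with an interval of -0.14 to 0.49. The other KRT10 probe sets differed by 0.10 ± 0.13 and 0.014 ± 0.15 and overlapped as well, so all 3 gave small differences that did not pass the test. With an array left out, the lowest differences of the 3 were -0.016, -0.0062 and -0.097, so their sign was not stable.

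**Figure D2:**
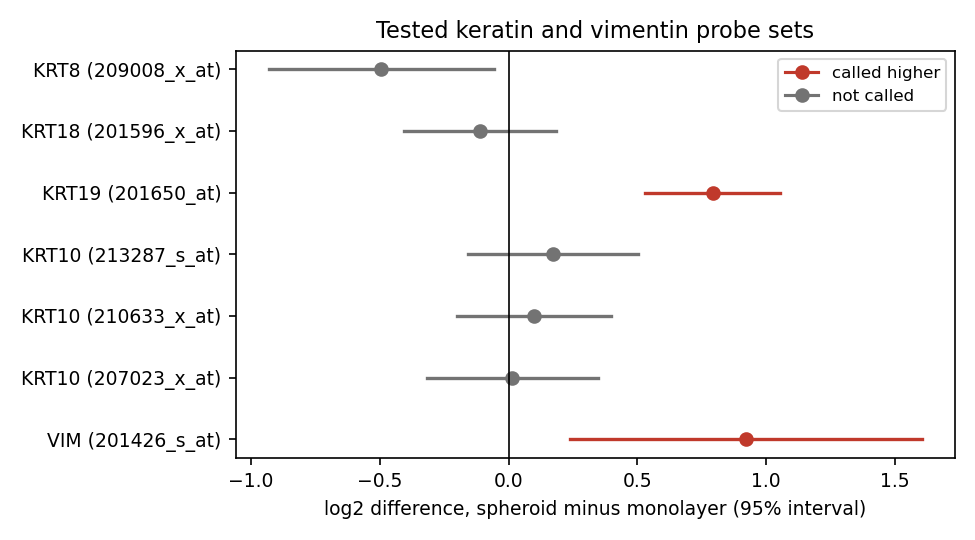
Log2 difference, spheroid minus monolayer (x), with its 95% interval, for the 7 tested keratin and vimentin probe sets (y), fitted over all 14162 tested probe sets, red where called higher and grey where not called. KRT19 is at 0.79 and VIM at 0.92 with a much wider interval, the 3 KRT10 probe sets sit near 0, and the interval of KRT8 lies below 0 although its adjusted p was 0.0773 in this fit.

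VIM, the filament gene of mesenchymal cells, had 651.2 and 374.0 units in spheroids against 204.2 and 294.7 units in monolayers (201426_s_at). Spheroids were above monolayers, but the spheroid arrays were further apart than the gap between the groups. Both monolayer arrays were under 300 units, so VIM passed the filter only through the group where it was higher, and a VIM at its monolayer level on all arrays would not have been tested. Group means were 512.6 ± 196.0 units in spheroids and 249.4 ± 64.0 in monolayers (SD, n = 2 each). The log2 difference was 0.92 ± 0.30 (limma, adjusted p = 0.0288), with an interval of 0.27 to 1.58, or 1.20-fold to 2.99-fold. The call was lost without spheroid replicate 1 (0.55, adjusted p = 0.285) and without monolayer replicate 1 (0.69, adjusted p = 0.108). With no filter, where the signal level decides nothing, it was not called (adjusted p = 0.130), nor with quantile normalization (0.75, adjusted p = 0.0802) or with spike-in scaling (0.13, adjusted p = 0.794). The other VIM probe set (1555938_x_at) had 13.1 and 8.80 units in spheroids against 42.2 and 6.15 units in monolayers, at the level of the unspiked controls on 3 of 4 arrays and with no order between the groups. VIM was the tested member closest to the filter, with a mean of 381.0 units, followed by a KRT10 probe set at 4535. Just below the filter were KRT23 at 206.9 units and the brightest KRT7 probe set at 193.3.

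RefSeq promoter windows (GRCh38.p14, 250 bases before to 50 bases after the listed start) were found for 4 of the 9 genes, KRT8, KRT10, KRT20 and VIM. The window of VIM, the only called gene among them, and that of KRT10, which was not called, are shown to set their start regions side by side. Capitals mark motif matches on either strand. The TATA box, which positions the start of transcription at some genes, was searched as TATAAA. The GC box, bound by factors of the Sp family, was searched as GGGCGG. The core of the hypoxia response element, which hypoxia-inducible factors bind, was searched as ACGTG. The AP-1 element was searched as TGANTCA, with N for any base. No match overlapped another in these windows. The VIM window lies at chr10:17227991-17228290 (plus strand) and that of KRT10 at chr17:40822565-40822864 (minus strand), and each is written in the direction of its gene.
VIM: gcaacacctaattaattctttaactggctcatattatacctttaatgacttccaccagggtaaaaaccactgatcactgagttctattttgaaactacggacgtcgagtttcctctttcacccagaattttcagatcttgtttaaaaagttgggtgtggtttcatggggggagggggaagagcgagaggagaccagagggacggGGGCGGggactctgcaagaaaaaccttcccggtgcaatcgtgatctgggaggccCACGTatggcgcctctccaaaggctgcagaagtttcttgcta
KRT10: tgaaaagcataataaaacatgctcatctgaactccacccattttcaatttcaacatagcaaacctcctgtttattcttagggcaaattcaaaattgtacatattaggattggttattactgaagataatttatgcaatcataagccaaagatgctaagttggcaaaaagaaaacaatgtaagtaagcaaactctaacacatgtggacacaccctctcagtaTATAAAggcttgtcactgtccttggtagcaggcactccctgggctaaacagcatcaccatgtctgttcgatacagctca
The KRT10 window holds a TATA box whose first base is 29 bases before the start. The VIM window holds a GC box beginning 46 bases before the start and the ACGTG core, on the other strand, from base 9 after it. Of all 35116 windows of this length, 11.5% hold the TATA box, 45.0% the GC box, 7.71% the AP-1 element and 21.4% the hypoxia response core. The KRT8 and KRT20 windows hold none of the 4, and the KRT8 window starts inside its gene's span rather than at its end. A match describes letters only, and no factor was measured at these sites.

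Over all 16 probe sets, both spheroid arrays lay above both monolayer arrays for 5 (2 of KRT19 and 1 each of KRT20, KRT23 and VIM) and below them for 3 (KRT8, KRT80 and 1 of KRT7), and 8 overlapped. Of the 41091 probe sets with 1 symbol, 49.4% were apart in this way, 28.3% above and 21.2% below. Among tested probe sets the groups were apart for 3 of 7 members, 2 above and 1 below, where 67.9% of all were apart, 32.9% above and 35.0% below. Among untested ones they were apart for 5 of 9 members, against 39.7% of all. At probe set level 2 of 7 were called higher and 0 lower, where 34.1% of all tested probe sets were called, 16.8% higher and 17.2% lower. KRT8 was the 1 further probe set with an unadjusted p under 0.05 (limma, adjusted p = 0.0773), and the methods' t-test called 0 lower without adjustment.

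Ratios within an array do not change when the array is multiplied by a single factor, although the ratio of 2 probe sets is not a ratio of molecules. Quantile normalization is not such a scaling and can change them. These ratios were chosen after the values were seen. The KRT19 signal divided by that of KRT18 was 0.746 and 0.694 in spheroids against 0.461 and 0.320 in monolayers. Divided by that of KRT8 it was 4.19 and 5.41 in spheroids against 1.78 and 2.13 in monolayers. The groups were apart in both, with log2 changes of 0.91 and 1.29. KRT8 divided by KRT18 gave 0.178 and 0.128 in spheroids against 0.259 and 0.150 in monolayers, with overlap. An exact two-sided permutation test of a ratio without overlap gives p = 0.333, the smallest possible here. The ratios are given as a description, and a difference in change between these genes was not shown by a test.

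**Figure D3:**
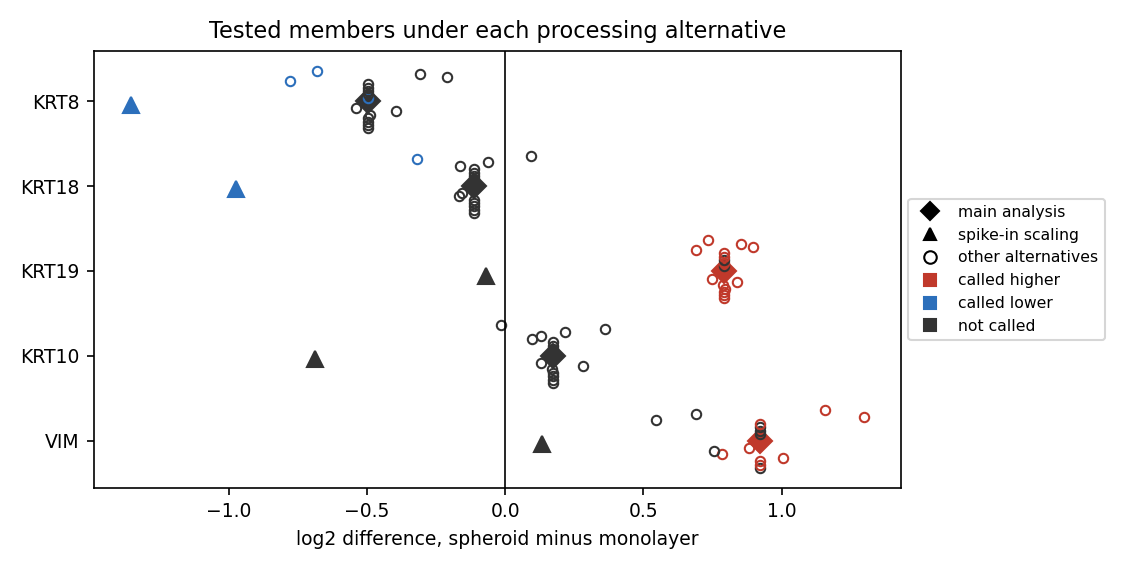
Log2 difference, spheroid minus monolayer (x), of the 5 tested genes (y) as reported (diamonds), with spike-in scaling (triangles) and under the other alternatives (open circles, spread vertically), with colours for called higher (red), called lower (blue) and not called (black). KRT19 is at 0.69 to 0.90 apart from spike-in scaling (-0.069), VIM spreads from 0.13 to 1.30, and KRT8 is negative throughout, from -1.35 to -0.21.

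Several of these genes have relatives with similar sequence. KRT8, KRT18 and KRT19 have processed pseudogenes, and the names of the KRT8 and KRT18 probe sets end in _x_at, which marks probes that can also match other genes, so their values may include such copies. The KRT10 probe sets 207023_x_at and 210633_x_at carry this ending too. A probe set of the pseudogene KRT19P2 had 69.2 and 53.7 units in spheroids against 31.0 and 7.98 in monolayers. Of the KRT8P12 probe sets, 1 had 181.0 and 34.4 units in spheroids against 230.1 and 106.9 in monolayers, and the other had 207.4 and 157.0 in spheroids against 220.5 and 97.8 in monolayers. The RefSeq gene spans of KRT8 and KRT18 overlap. KRT10-AS1, named as antisense to KRT10, had 2060 and 1988 units in spheroids against 2393 and 2385 in monolayers. Its difference of -0.24 ± 0.16 was not called (limma, adjusted p = 0.253).

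Of the genes for proteins that anchor or bind keratin filaments, most of those tested were higher in spheroids on the deposited scale. With no filter on signal only 2 were called higher, where 1336 of all 19775 genes were. After scaling to the spike-in controls none was. Of 12 listed linkers and partners 11 were tested, and 7 of them were higher and 0 lower, where 19.0% of all tested genes were higher and 20.6% lower. Their median difference was 0.50 on the log2 scale. At an unadjusted p under 0.05, limma and the methods' t-test also called 0 lower. PPL (periplakin) had 1514 and 1462 units in spheroids against 574.3 and 517.7 in monolayers, a log2 difference of 1.40 ± 0.19. DSP (desmoplakin), which ties filaments to desmosomes, had 12952 and 14480 units in spheroids against 6470 and 7330 in monolayers, a difference of 0.99 ± 0.13. EPPK1 (epiplakin) and PLEC (plectin) were higher by 0.76 ± 0.22 and 0.69 ± 0.21. Without spheroid replicate 1, spheroid replicate 2 or monolayer replicate 2 the counts of higher genes were 4, 4 and 3. PPL and DSP kept their calls with each array left out. After spike-in scaling 2 of the 11, FAM83H and TCHP, were called lower, where 3996 of all 8721 tested genes were lower and 183 higher. Of the 7 genes called higher, 5 turned negative without a call: DST (-0.38), SFN (-0.36), TRADD (-0.16), PLEC (-0.14) and EPPK1 (-0.058).

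**Figure D4:**
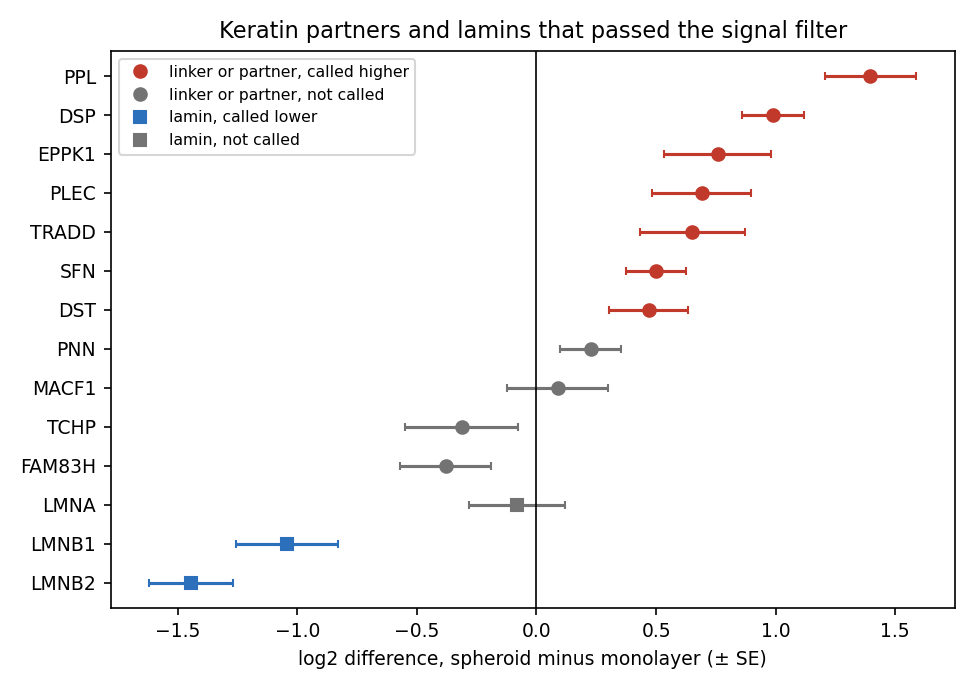
Log2 difference, spheroid minus monolayer (x, ± SE), of the 11 tested keratin linkers and partners (circles) and the 3 tested lamins (squares), with colours for called higher (red), called lower (blue) and not called (grey). PPL and DSP lie furthest to the right at 1.40 and 0.99, and LMNB2 and LMNB1 furthest to the left at -1.44 and -1.04; with spike-in scaling no linker was called higher.

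The lamins that were called were lower in spheroids. Of 14 lamins and other intermediate filament genes 3 were tested, and the nuclear B-type lamins LMNB2 and LMNB1 were lower by -1.44 ± 0.18 and -1.04 ± 0.21 (limma, adjusted p = 6.72e-05 and 0.00229). Of all tested genes 20.6% were lower. The count of lamins called lower was 1 against a log2 difference of 0.5, with the methods' t-test and without _x_at and _s_at probe sets. LMNB2 had 746.8 and 747.2 units in spheroids against 2084 and 2091 in monolayers. LMNA, the A-type lamin, was not called (-0.080 ± 0.20). The median of the 3 was -1.04. Of the remaining keratins, 18 of 23 listed type I and 17 of 23 listed type II genes had a probe set with exactly 1 symbol, and 0 of these passed the filter. The listed genes without one, such as KRT17, KRT6A and KRT81, were not examined. The brightest value among the examined genes was 449.5 units, for KRT15, a type I keratin of basal cells. It had 449.5 and 439.2 units in spheroids against 89.1 and 188.8 in monolayers. KRT13, a type I keratin of stratified mucosa, had 268.3 and 193.3 units in spheroids against 58.5 and 6.96 in monolayers. Both lay higher in spheroids without overlap and were chosen after their values were seen. With no filter both were called higher, KRT15 by 1.54 ± 0.37 and KRT13 by 2.13 ± 0.51 (limma, adjusted p = 0.0329 and 0.0311). They were the only calls among the 18 type I and 17 type II genes then tested. In that fit 1336 of all 19775 genes were called higher and 1318 lower. At a filter of 100 units KRT15 and KRT13 were called as well, but KRT13 passed that filter only through the spheroid arrays. At 300 units on at least 2 arrays KRT15 alone was tested and called, and only its spheroid arrays were above 300 units. Like VIM, each was thus admitted there by the group where it was higher.

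The listed factors of epithelial-mesenchymal transition were dim. The 6 transcription factors of epithelial-mesenchymal transition in the list (SNAI1, SNAI2, ZEB1, ZEB2, TWIST1 and TWIST2), which can repress E-cadherin, all failed the filter. ZEB1 was the brightest, with 229.4 and 371.9 units in spheroids against 195.3 and 242.5 in monolayers, with overlap. Of 7 mesenchymal markers 2 were tested, and both were called higher, where 19.0% of all tested genes were. The calcium-binding S100A4 had 14266 and 11313 units in spheroids against 4017 and 3247 in monolayers and was higher by 1.81 ± 0.16. The smooth muscle actin ACTA2 had 551.5 and 451.5 units in spheroids against 239.0 and 202.2 in monolayers, and like VIM it passed the filter only through spheroids. Its difference of 1.08 ± 0.26 was called, also with no filter (limma, adjusted p = 0.0410), but not without spheroid replicate 1 (0.94, adjusted p = 0.0625) or with spike-in scaling (0.29, adjusted p = 0.555). CDH2 (N-cadherin) stayed at or below 33.2 units. FN1, also untested, had 356.7 and 440.8 units in spheroids against 240.6 and 156.8 in monolayers. At a filter of 100 units it was called higher (0.92, limma, adjusted p = 0.0290), but not with no filter. At 300 units on at least 2 arrays FN1 was called again, admitted only by the spheroid arrays. SPARC too lay higher in spheroids without overlap, with 262.3 and 40.0 units against 6.04 and 28.2 in monolayers. Both monolayer values lay within the range of the unspiked controls. CDH2, MMP2 and TNC overlapped. Of 15 colon epithelial genes 3 were tested, and besides CDH1 the epithelial transcription factor ELF3 was higher, with 4062 and 4156 units in spheroids against 735.5 and 469.7 in monolayers (2.74 ± 0.21), while EPCAM was not called (0.016 ± 0.11). With spike-in scaling 1 of the 3 was called higher, where 183 of all tested genes were. After Benjamini-Hochberg the methods' t-test called 0 of the 3 higher, and 1 of all genes.

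As a description of likeness over the 4 arrays, tested genes were ranked by the root mean square distance of their centred log2 values. Closest to KRT19 were TMEM219, SLC35D2 and HDHD3, at distances of 0.010, 0.013 and 0.024. TMEM219 had 1214 and 1031 units in spheroids against 660.5 and 599.3 in monolayers. Closest to VIM were PMS2P5, LYRM1 and FTX at 0.076, 0.099 and 0.13, so VIM had less close neighbours than KRT19. Closest to KRT8 were GPS2, MAD1L1 and MYG1 (0.029, 0.040 and 0.043), to KRT18 LINC01128, PSIP1 and NSUN3 (0.021, 0.030 and 0.037), and to KRT10 FGFR4, MIB2 and DNM2 (0.024, 0.031 and 0.031).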

How the data were processed

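Total RNA of 2 HCT116 spheroid and 2 monolayer cultures was hybridized as biotinylated cRNA to 1-colour Affymetrix U133 Plus 2.0 arrays. The deposited values are signal intensity per probe set, which the authors normalized with MAS5 (version not given in the sources used here). MAS5 scaling sets the trimmed mean of all arrays equal and so removes changes in total mRNA. Detection calls were not used. Of 54675 probe sets, 41091 had 1 symbol in the platform annotation; RefSeq matching changed 0. The file names no genome build.

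Probe sets with a mean above 300 units were kept (14162, after the study's own threshold), log2(signal + 32) was taken, and each of 8721 genes was represented by its brightest probe set. limma (version 3.58.1, in R 4.3.3) tested the 2 spheroid against the 2 monolayer arrays (lmFit, eBayes with intensity trend, two-sided, Benjamini-Hochberg over everything tested, 2 residual degrees of freedom). A second fit used all probe sets. The script was tested on simulated data. The number of arrays limits the precision.

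Named were all 9 members, up to 4 called genes of each list by size (2 by smallest p where none was called), and 3 nearest genes per tested member. Members and lists were chosen with earlier results of these data known, and genes outside the rule are described by their values. No explanation was tested.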

Additional observations from a re-analysis of the deposited data

How the results depend on the processing

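Alternatives were 19 for the gene fit and 17 for the probe set fit. The count of members called higher was 2 as reported. It was 1 with no filter, with quantile normalization and with the methods' unadjusted t-test in both fits, with median scaling in the probe set fit, and without _x_at and _s_at probe sets in the gene fit, where only KRT19 was left to test. It was 0 with spike-in scaling, with a test against a log2 difference of 0.5 and with the methods' t-test after Benjamini-Hochberg. Leaving out 1 array gave 1 to 2 higher and 0 to 1 lower in both fits. The count of members called lower, 0 as reported, was 2 with spike-in scaling (KRT8 at -1.35 and KRT18 at -0.97) and 1 with the replicate block. That block, the replicate number as a term, called KRT8 lower (-0.49, adjusted p = 0.00207) and changed no other member's call. The labels give shared numbers only, and deviations of arrays with one number correlated at 0.323 across genes, with 2 pairs. Over all genes the block called 2114 higher and 2301 lower and spike-in scaling 183 and 3996, against 1656 and 1799. The test against 0.5 called 498 and 294, the methods' t-test 1218 and 1430 unadjusted and 1 and 1 after adjustment, and probe sets without _x_at and _s_at 1118 and 1114. All sign reversals of called genes came with spike-in scaling: KRT19 (-0.069), SFN (-0.36), DST (-0.38), PLEC (-0.14), EPPK1 (-0.058) and TRADD (-0.16); the cause was not tested. Of the linkers, 2 were called higher with no filter (1336 of all 19775 genes), 2 against 0.5, 4 and 0 with the methods' t-test unadjusted and adjusted. KRT19 was called in 16 of 19 alternatives, VIM in 10 of 18, KRT8 in 4 of 18, KRT18 in 2 of 18 and KRT10 in 0 of 18. Signals below about 35.0 units cannot be told from the unspiked controls.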

Other observations

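Filament genes outside the keratins were found among the dim probe sets. SYNM, which encodes the large filament protein synemin, had 418.7 and 341.6 units in spheroids against 186.3 and 126.0 in monolayers. BFSP1, a filament gene known from the eye lens, had 380.3 and 335.8 units in spheroids against 215.0 and 179.4 in monolayers. DES (desmin) had 148.5 and 107.6 units in spheroids against 21.3 and 15.9 in monolayers. All lay higher in spheroids without overlap and were chosen after their values were seen. NEFL, of the same list, lay lower without overlap, with 19.9 and 4.99 units in spheroids against 46.7 and 50.7 in monolayers. SYNM and BFSP1 passed 300 units only in spheroids, and all 3 failed the filter on the mean of 4 arrays. With no filter DES alone of the 3 was called (1.65 ± 0.39, limma, adjusted p = 0.0311), and both its monolayer values lay within the range of the unspiked controls. At a filter of 100 units SYNM (1.14, adjusted p = 0.0111) and BFSP1 (0.77, adjusted p = 0.0481) were called, and both were again at 300 units on at least 2 arrays.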
